A study of Bos taurus with 94 samples.

Results

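The excurrent duct of the adult Hereford bull was examined through 3 of the 94 RNA sequencing libraries of a cattle tissue collection: the head of the epididymis (label caput_epididymis), its body (label corpos_epididymis) and the vas deferens (label vas_deferens). The libraries were chosen by their tissue labels. The head and body were compared as 1 group with the vas deferens, and then with each other. Every library came from snap frozen tissue of the Hereford breed with the age label adult, and no treatment or genotype is named. Each tissue is 1 library, so the head and body are neighbouring segments rather than repeat samples, and the vas deferens has no repeat. The labels name no animal, so whether the 3 tissues came from the same bull is not known. A further duct library, the tail (label tail_epididymis), was left out of the comparison because its profile does not resemble the other segments, which is a choice made from the data. Its values are given beside the results.

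The epididymis is a long coiled tubule that carries sperm from the testis to the vas deferens. Its epithelium is regionalised: the head and body secrete and absorb much of the luminal fluid in which sperm mature, and each segment has its own set of secreted proteins. The vas deferens is a straight tube with a thick coat of smooth muscle that propels sperm at ejaculation. The deposited values carry Ensembl gene identifiers without names, and no symbol was found for any of the 24616 (0 matched). Genes are therefore described by their levels and by the tissues in which they were found, with only the furthest few given by identifier. For the same reason the labelled tissues could not be checked against marker genes of epididymal epithelium, smooth muscle or sperm.

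Levels are in FPKM, a measure of fragments that is divided by transcript length and by the library's mapped fragments, so that levels can be compared between genes. FPKM totals were 820015 in the head, 773444 in the body and 704353 in the vas deferens, within the range of 585122 to 1062591 over all libraries. How many reads stand behind each total is not known. An FPKM of 1 or more was reached by 12907 genes in the head, 12671 in the body and 11584 in the vas deferens, against a median of 12442 over the 94 libraries. In the head 97 genes reached 1000 FPKM, in the body 114 and in the vas deferens 105, and these held 50.4%, 49.5% and 49.9% of all FPKM. The single most abundant gene held 6.90% of the FPKM in the head, 4.53% in the body and 3.77% in the vas deferens.

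The first question was how far the duct segments resemble each other. Likeness was measured by Spearman's rho of log2(FPKM + 1) over 18031 genes, a description across genes that are not independent replicates. The head was closest to the body (rho 0.907), and the vas deferens came only 18th among the other 93 libraries (0.766). The body was as close to the head (0.907) as to the library labelled follicle, replicate 1 (0.909), and its rho with the vas deferens was 0.832, the sixth highest. The vas deferens was closest to the contralateral isthmus of the oviduct (0.899), the urethra (0.898), the KPH_fat library (0.893) and the aorta (0.886). The body ranked 27th and the head 70th among its neighbours. The vas deferens thus lay nearer to several tubular organs and to fat than to either epididymal segment.

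The tail was not among the closest libraries of any of the 3. Its closest libraries were those labelled gall bladder (0.931), diaphragm (0.931) and follicle replicates 2 and 3 (0.928 and 0.925). Its rho was 0.815 with the vas deferens, 0.780 with the body and 0.759 with the head. The tail was thus nearer to the vas deferens than the head was (0.766). Follicle replicate 1 went against its own label in the other direction, with the body (0.909) and the head (0.882) as its closest libraries. In the numbering of the library titles, follicle replicate 1, the body and the head follow each other, and so do the tail and follicle replicates 2 and 3. What the numbers stand for is not stated, so likeness and numbering cannot be told apart here. Whether either label is right could not be settled from these files, and why the libraries lie where they do was not tested. Both keep their labels here, so every value given for the tail or for follicle replicate 1 is that of the library so labelled, whichever tissue it holds.

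**Figure D1:**
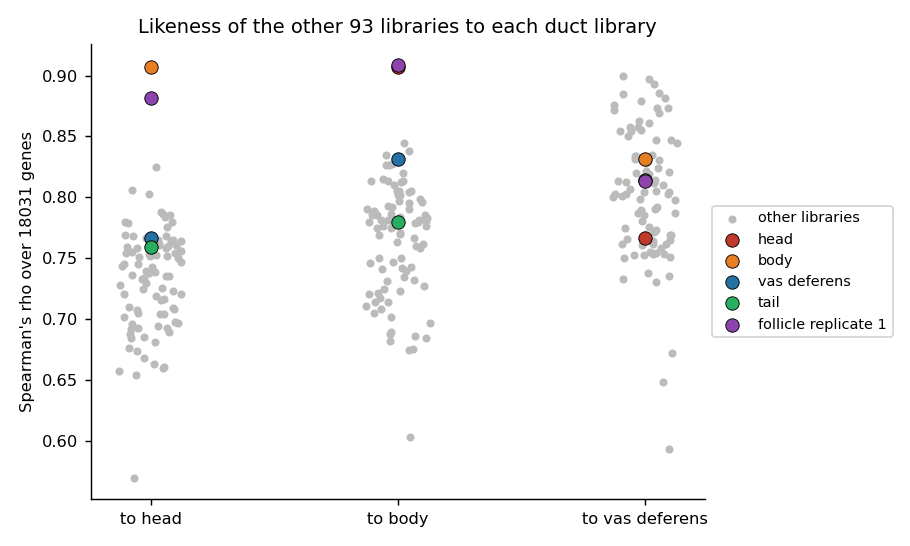
Spearman's rho over 18031 genes (vertical axis) between each duct library (columns) and the other 93 libraries; each point is a library, and coloured points are the duct libraries and follicle replicate 1. The body (0.907) and follicle replicate 1 (0.882) stand above every other library in the head column, while the vas deferens column has neither epididymal segment near its top.

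The head and body were then set against the vas deferens to find the genes that separate secretory epididymis from the sperm-conducting tube. More genes were higher in the epididymis than in the vas deferens: limma called 1591 of 18031 genes (8.82%), 1153 higher (6.39%) and 438 lower (2.43%), at an adjusted p under 0.05 and a difference of at least 1 on the log2(FPKM + 1) scale. In the genes called higher, the median level was 10.6 FPKM in the head, 7.09 in the body and 0 in the vas deferens, where 638 of the 1153 were listed at 0. In the genes called lower, the median level was 31.0 FPKM in the vas deferens, 3.64 in the body and 2.54 in the head, and 77 of the 438 were listed at 0 in the head and 86 in the body. Fewer cells of a type and less RNA per cell cannot be told apart in such bulk samples.

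The median difference was 2.47 on the log2(FPKM + 1) scale among the genes called higher and 2.70 among those called lower, and 132 and 78 genes differed by 4 or more on that scale. Differences past 6 were found for 35 genes toward the epididymis and 7 toward the vas deferens. Over all genes tested the median absolute difference was 0.673 and the median standard error 0.687.

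Because the vas deferens is 1 library, this test takes the spread within 19 groups of 2 or more libraries and assumes that the vas deferens varies like them. On the 3 libraries alone, with 1 residual degree of freedom, limma called 0 genes, with 2921 at an unadjusted p under 0.05. The head carried most of the calls: without it 618 genes were higher and 157 lower, of which 520 and 153 were among those called with both segments, and without the body the counts were 1237 and 400. Adding the tail to the epididymis group gave 588 higher and 290 lower. The balance between directions also moved with scaling, to 1076 higher and 776 lower after quantile normalization, which took the median difference over all genes from 0.13 to 0.

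A count that uses no spread from other tissues took genes whose head and body levels both lay at least 4-fold from the vas deferens, among the 8190 genes that reached 10 FPKM in 1 of the 3 libraries. Of these 582 (7.11%) were higher in both segments and 468 (5.71%) lower in both. The balance between the directions turned with scaling, to 482 higher and 532 lower after rescaling to equal totals and 450 higher and 524 lower after quantile normalization. Taken singly, the head was at least 4-fold above the vas deferens in 1050 genes (12.8%) and below it in 881 (10.8%), while the body was above it in 801 (9.78%) and below it in 526 (6.42%). The head thus had more genes past this fold than the body in either direction, in counts that share the vas deferens library. The segments lay on opposite sides of the vas deferens in 5 genes with the head 4-fold below and the body 4-fold above (0.0611%) and in 1 gene the other way (0.0122%). Most of these genes were listed at 0 in the head or the body.

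**Figure D2:**
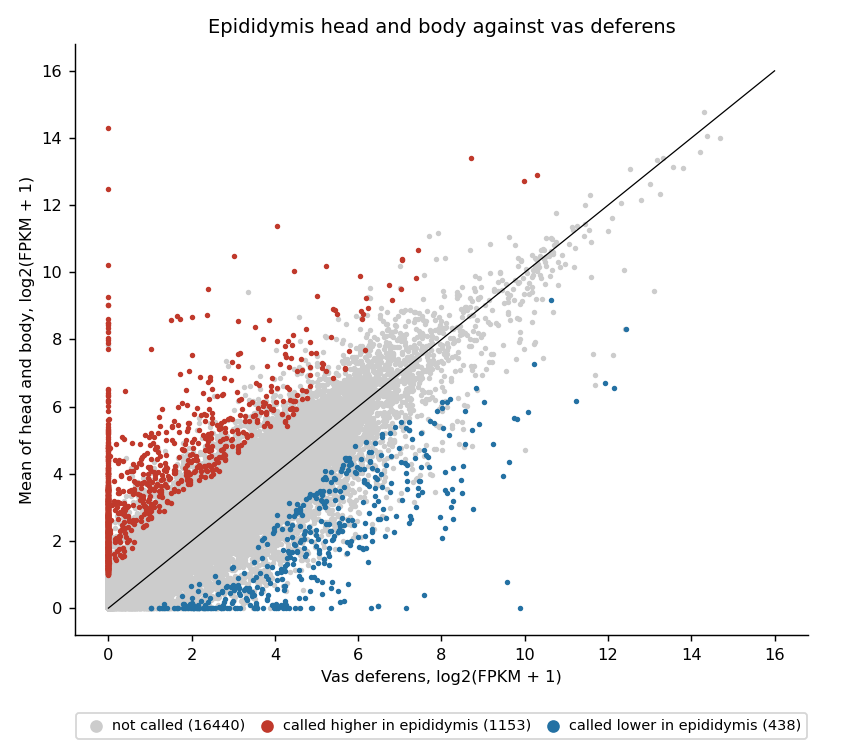
Level of 18031 genes in the vas deferens (horizontal axis) and the mean of the head and body (vertical axis), both as log2(FPKM + 1); each point is a gene, red for the 1153 called higher in the epididymis, blue for the 438 called lower, and the line marks equal levels. The column of red points at the left edge holds genes listed at 0 in the vas deferens.

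The gene furthest toward the epididymis, ENSBTAG00000047297, was the most abundant gene of the head at 56618 FPKM. It stood at 7196 FPKM in the body and was listed at 0 in the vas deferens and in the tail. It held 6.90% of all FPKM in the head and 0.930% in the body. Among the 91 libraries outside the comparison its highest levels were 1599 FPKM in follicle replicate 1, 400 in the library labelled prostrate and 76.1 in mammary gland fat, and 67 of the 91 listed it at 0. Its difference on the log2(FPKM + 1) scale was 14.30 ± 1.82 (SE; limma adjusted p = 5.38e-08). Against a value listed at 0 this is no fold, and it was 17.62 with a pseudocount of 0.1.

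ENSBTAG00000033377 showed the same order of levels. It stood at 26060 FPKM in the head and 1232 in the body, and was listed at 0 in the vas deferens and the tail. It reached 2396 FPKM in follicle replicate 1, above its level in the body, 212 in the library labelled prostrate and 57.3 in mammary gland fat. Those libraries, the head and the body have titles in a consecutive run of numbers, which also takes in the vas deferens and the normal outer eye. Whether the numbering bears on the levels of either gene was not tested. Its difference was 12.47 ± 1.86 on the log2(FPKM + 1) scale (SE; limma adjusted p = 2.06e-06). The call was kept for both genes without either segment and was lost on the 3 libraries alone (limma adjusted p of 0.286 and 0.31).

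The gene furthest toward the vas deferens, ENSBTAG00000023434, stood at 938 FPKM there and was listed at 0 in the head, the body and the tail. It was found in few other libraries. Mammary gland fat held 14988 FPKM, the next library, biceps femoris, 7.65, and 77 of the 91 other libraries listed it at 0. Mammary gland fat is in a group that gives spread to the test. Its level therefore enters the standard error given below, which is not a spread of the vas deferens. The titles of the vas deferens and mammary gland fat libraries carry consecutive numbers, whose meaning is not stated. Whether the numbering bears on this level was not tested. Its difference was -9.88 ± 2.18 on the log2(FPKM + 1) scale (SE; limma adjusted p = 0.00147).

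ENSBTAG00000000177 reached 761 FPKM in the vas deferens, its highest level in any of the 94 libraries. It was listed at 0 in the head and stood at 2 FPKM in the body and 1.01 in the tail. It was widely found, with 503 FPKM in the fornix of the vagina, 471 in the ipsilateral infundibulum and 463 in the cervical lining, and an FPKM of 1 or more in 55 of the 91 other libraries. Its difference was -8.78 ± 1.80 on the log2(FPKM + 1) scale (SE; limma adjusted p = 0.000522). On the 3 libraries alone these calls were lost as well (limma adjusted p of 0.106 and 0.282).

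**Figure D3:**
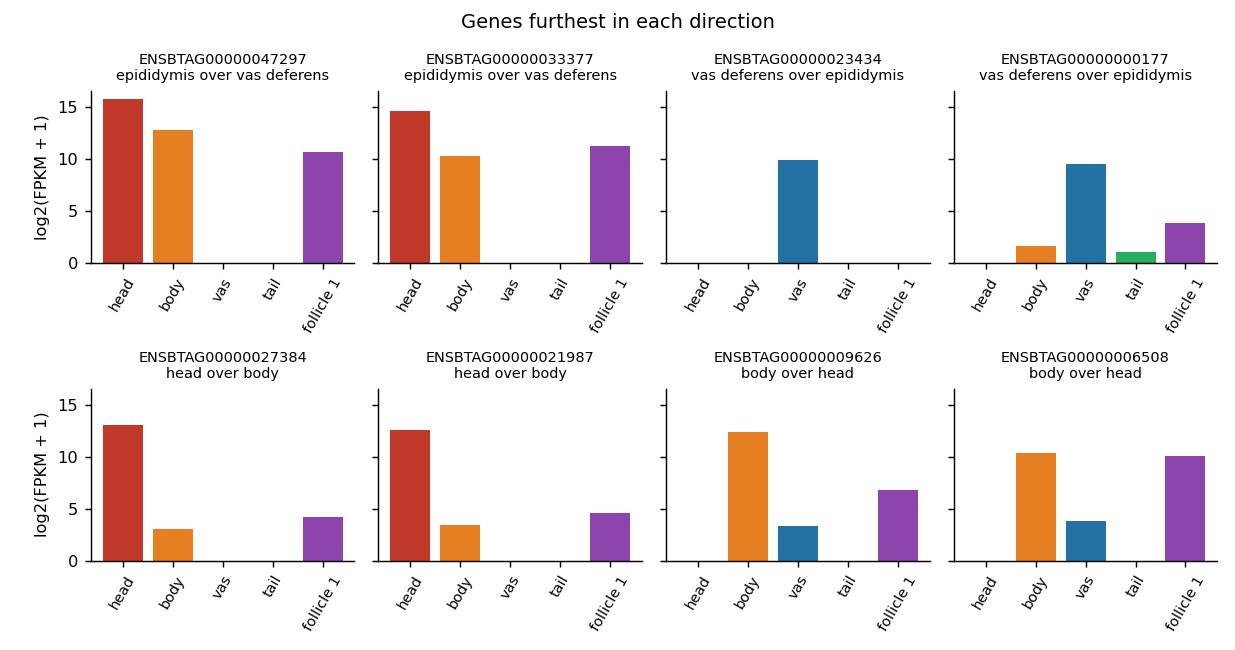
Level of the 8 genes furthest in each direction, as log2(FPKM + 1), in the head, body, vas deferens, tail and follicle replicate 1; each bar is 1 library, so there are no error bars. The genes that mark the head or the body are at 0 in the tail, and follicle replicate 1 carries all 6 of those genes.

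The genes called higher in the epididymis were narrowly expressed, with an FPKM of 1 or more in a median of 33 of the 91 other libraries, against 85 for the genes called lower and 78 for all genes tested. Of the 1153, 266 (23.1%) reached that level in 5 or fewer other libraries, while 18 of the 438 genes called lower (4.11%) and 6.58% of all genes tested did. At the other end, 157 of the genes called higher (13.6%) and 139 of those called lower (31.7%) were found in all 91. The share among all genes tested was 25.3%. The spread used for the calls comes largely from other tissues. Genes with low levels in those tissues can have a small standard error and are then called more easily. Part of the narrow expression may therefore follow from the call, so these shares describe the sets and are not a test.

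The head was the library of highest level for 164 of the 1153 genes and the body for 52, together 18.7%, against 2.74% of all genes tested. The vas deferens was highest for 67 of the 438 genes called lower (15.3%), against 0.560% of all genes tested. Since each set was chosen for a high level in these libraries, the shares describe the sets and are not a test.

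Among the other 91 libraries, the library labelled Super_bull_testis was the highest for 508 of the 1153 genes (44.1%), against 13.8% of all genes tested. Bull testis is the lone library of its group and adds nothing to the spread. Genes high there and near 0 in most other tissues are therefore called more easily, so the share describes the set and is not a test. Of the 1153 genes, 567 (49.2%) had a higher level in bull testis than in both the head and the body, a share near that of all genes tested (47.8%). Those 567 genes had a median of 80.9 FPKM in bull testis, 6.53 in the head, 3.35 in the body, 1.57 in follicle replicate 1 and 0 in the vas deferens and the tail, and 418 were listed at 0 in the vas deferens. Over all genes tested, those above both segments in bull testis had a median of 13.2 FPKM there. The fetal testis held a median of 2.77 FPKM for the 567 genes. The part that testis RNA may have in these values was not tested.

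The other 586 genes called higher, in which bull testis did not exceed both segments, had a median of 22.6 FPKM in the head, 15.3 in the body, 11.3 in follicle replicate 1, 3.54 in bull testis, 3.1 in the tail and 0.957 in the vas deferens. They held 27% of all FPKM in the head and 10.3% in the body, where the 567 genes held 0.963% and 0.607%. The split itself places genes with high epididymal levels among the 586. Over all genes tested, those with a higher level in bull testis than in both segments held 18.4% of the FPKM in the head and 21.1% in the body. An FPKM of 100 or more in the head or body was reached by 129 of these 586 genes and by 12 of the 567. The 586 genes reached 1 FPKM in a median of 67 other libraries and the 567 in a median of 12.

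The genes called lower in the epididymis had no single partner tissue. The library of highest level outside the 3 was the uterine myometrium for 34 of the 438 genes (7.76%), the trachea for 31 (7.08%) and the ipsilateral isthmus for 29 (6.62%). The hippocampus was highest for 27 (6.16%) and the aorta for 26 (5.94%). Among all genes tested the ipsilateral isthmus was highest for 3.48%. The other named libraries were not among the 6 highest there, of which the last held 3.17%. The shares describe the set and are not a test. By the median level over the 438 genes, the vas deferens stood at 5 on the log2(FPKM + 1) scale, followed by the aorta (4.31), trachea (4.28), contralateral isthmus (4.25) and myometrium (4.19). The tail stood at 3.21, near the median of 3.09 over the 91 other libraries, and the body (2.21) and head (1.82) lay well below it. These genes were chosen as lower in the head and body than in the vas deferens, so the places of those 3 libraries follow from the choice.

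**Figure D4:**
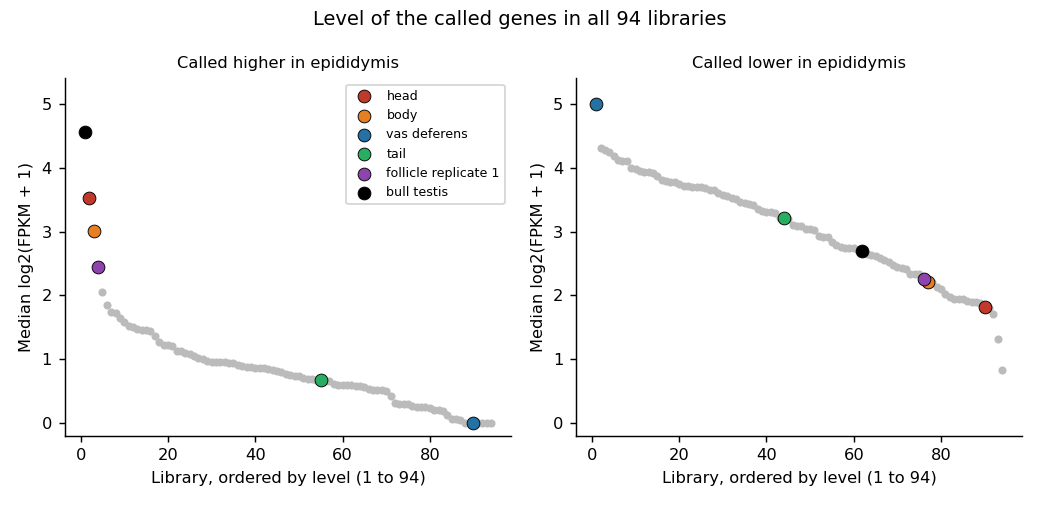
Median log2(FPKM + 1) of the 1153 genes called higher (left) and the 438 called lower (right) in each of the 94 libraries, ordered from highest to lowest; coloured points are the duct libraries, follicle replicate 1 and bull testis. On the left bull testis (4.56) lies above the head (3.53) and body (3.02), with follicle replicate 1 (2.45) next. On the right the vas deferens (5) leads. The genes were called on the head, body and vas deferens, so the places of these libraries follow from the choice.

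In 53 genes that reached 10 FPKM, the head or the body lay at least 4-fold above all 92 other libraries, and 87 did when follicle replicate 1 was not counted. The head was the higher segment in 36 of the 53, both segments had an FPKM of 10 or more in 21, and 30 were listed at 0 in the vas deferens. Their median level was 176 FPKM in the head and 57.3 in the body, and 10 of them were under 1 FPKM in the head. These 53 genes held 18.4% of all FPKM in the head, 5% in the body, 0.0455% in the vas deferens and 0.0719% in the tail. The 4 most abundant of them alone held 12.7% in the head and 3.61% in the body. Among the 92 other libraries follicle replicate 1 held the most (0.825%), followed by bull testis (0.366%).

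Counted singly, the head led 33 genes at least 4-fold over all 93 other libraries, the third highest number of the 94, and the body led 16, the seventh highest. The vas deferens led 2, and the median library 1. Bull testis led 815. A gene at like levels in 2 related libraries is led by neither, so these numbers and ranks depend on how many related libraries a tissue has. With the other segment and follicle replicate 1 not counted, the head led 60 genes and the body 53. The filter used for the limma test kept genes that reached 1 FPKM in 3 or more libraries. It left out 7 of the 53 genes that the head or the body led over all 92 other libraries.

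The head and body were last compared with each other, as 1 library each and so without a test. They were closer to each other than either was to the vas deferens: the median absolute difference on the log2(FPKM + 1) scale was 0.407 between head and body, 0.779 between head and vas deferens and 0.600 between body and vas deferens. Among the 7244 genes that reached 10 FPKM in either segment, 217 (3%) were at least 4-fold higher in the head and 194 (2.68%) at least 4-fold higher in the body. After rescaling to equal totals the numbers were 193 and 206, so which direction held more genes turned with the scaling.

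The 217 genes held 20.6% of all FPKM in the head and 1.66% in the body, and 62 of them reached 100 FPKM in the head. The 194 genes higher in the body held 6.10% of its FPKM and 0.306% in the head, and 49 reached 100 FPKM in the body. The head was the highest of all 94 libraries for 73 of its 217 genes (33.6%) and the body for 32 of its 194 (16.5%), against 1.96% and 0.782% of all genes tested. These sets were chosen for a high level in that segment, so the shares are a description. The median level of each set in its own segment was 33.5 FPKM.

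The vas deferens lay nearer to the head than to the body, on the log2(FPKM + 1) scale, in 20 of the 217 head genes (9.22%), and was at or below both segments in 149. For the body genes it lay nearer to the body in 80 of 194 (41.2%) and at or below both segments in 60. Its median level was 1.61 FPKM for the head genes and 9.93 for the body genes, and the tail's was 2.53 and 2.

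ENSBTAG00000027384 was furthest toward the head, at 8363 FPKM there, 7.21 in the body and listed at 0 in the vas deferens and tail. It also stood at 617 FPKM in bull testis, 74.5 in the library labelled prostrate, 18.0 in mammary gland fat and 17.2 in follicle replicate 1. ENSBTAG00000021987 stood at 6053 FPKM in the head and 9.72 in the body, was listed at 0 in the vas deferens and tail, and reached no more than 50.6 FPKM in any of the 91 other libraries, in the library labelled prostrate. ENSBTAG00000021987 also stood at 22.3 FPKM in follicle replicate 1. For both genes the body lay below the library labelled prostrate, mammary gland fat and follicle replicate 1. Those libraries, the head and the body have titles in the consecutive run of numbers given above, which also takes in the vas deferens. Whether the numbering bears on the body levels was not tested, so they are not read as a gradient along the duct. The head minus body differences of these genes were 9.99 and 9.14 on the log2(FPKM + 1) scale.

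ENSBTAG00000009626 was furthest toward the body, at 5283 FPKM there and 9.33 in the vas deferens, and was listed at 0 in the head and tail. The highest level outside these was 109 FPKM in follicle replicate 1, and 87 of the 91 other libraries listed it at 0. ENSBTAG00000006508 stood at 1303 FPKM in the body and 13.3 in the vas deferens, was listed at 0 in the head and tail, and reached 1060 FPKM in follicle replicate 1. No other library outside the duct went above 1.03 FPKM for it. On these genes the vas deferens lay between the body and the head, and the test of both segments against the vas deferens did not call them (limma adjusted p of 0.378 and 0.815).

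**Figure D5:**
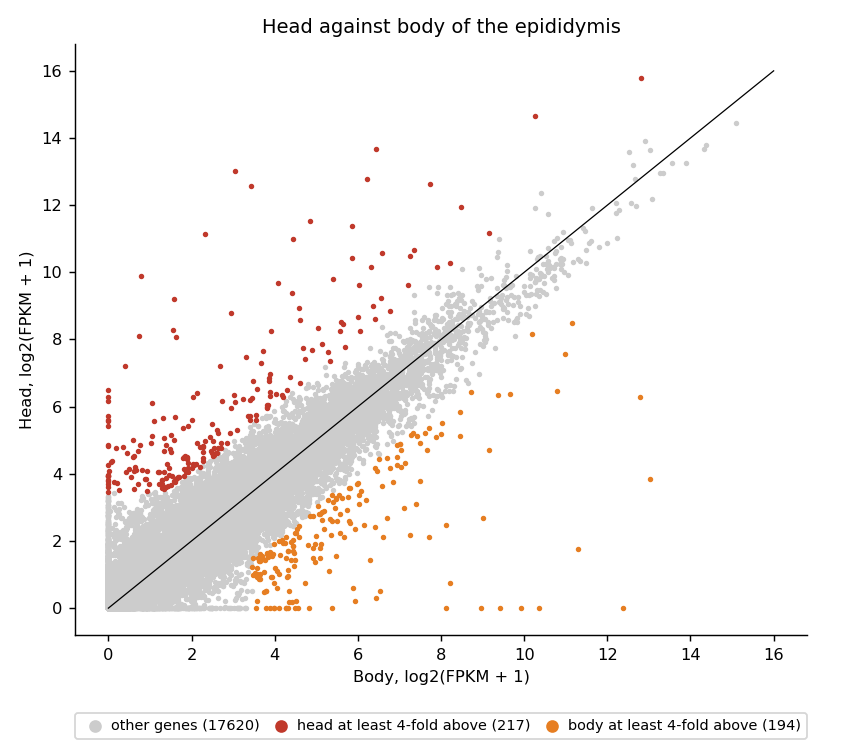
Level of 18031 genes in the body (horizontal axis) and head (vertical axis), both as log2(FPKM + 1); each point is a gene, red for the 217 at least 4-fold higher in the head, orange for the 194 at least 4-fold higher in the body, and the line marks equal levels. Differences of 4 or more on this scale number 50 toward the head and 38 toward the body, and those of 8 or more number 4 and 8.

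The segments were also compared within the genes that separate the epididymis from the vas deferens. Of the 1153 genes called higher, 679 (58.9%) differed by under 1 on the log2(FPKM + 1) scale between head and body. The head was higher by 1 or more in 385 and the body in 89. Of the 438 genes called lower, 376 (85.8%) differed by under 1, with 9 higher in the head and 53 in the body. Among all genes tested, 81.6% differed by under 1, with 1740 higher in the head and 1583 in the body. No minimum level was set here, and this scale shrinks differences between levels near 0. The median level in the head was 10.6 FPKM for the genes called higher, 2.54 for those called lower and 4.50 over all genes tested. Sets with lower levels therefore reach a higher share more easily, so the shares are not like for like. Head and body enter these sets together, and the difference between the shares was not tested.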

How the data were processed

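RNA sequencing values of 94 libraries were used, of which 3 (head and body of the epididymis, vas deferens) form the comparison. The authors deposited FPKM per Ensembl gene and library, per the file name and the labels, made with HISAT2 and StringTie on the genome build UMD3.1 per the submitters' processing notes. Their versions, the annotation and any filter are not stated in the labels. Read depth is unknown, so no counting intervals are given, and an exact 0 can be a failed estimate. FPKM is relative, so abundant genes lower the others.

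The 18031 genes that reached 1 FPKM in 3 or more libraries were tested as log2(FPKM + 1) with limma 3.58.1 in R 4.3.3 (1 mean per tissue group over all 94 libraries, empirical Bayes with a trend, two-sided, Benjamini-Hochberg over all genes). Residual degrees of freedom were 43. The p-values measure spread between related tissues and libraries, which may be partly technical. On simulated data of this design with 200 of 18031 genes changed, 29% of changes of 2 and 83% of changes of 4 on the log2 scale were recovered, with 2 false calls. The simulated noise was independent and drawn from the same pooled spread. The simulation therefore could not check whether the vas deferens varies like the other groups, and its false calls do not carry over to the real calls. Other steps used Python 3.11.15 with pandas 2.3.3 and numpy 2.4.6.

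The gene table used, for another assembly, lists no Ensembl identifiers, so the gene and marker lists could not be applied. The rule for named genes, which ranks called genes by the smaller of the head and body differences and then genes by the head minus body difference, was applied to identifiers, with 2 printed in each direction. No sequences are shown for the same reason. Comparisons, lists and rules were chosen with earlier results of these data known, and the split by bull testis and the genes led by the duct libraries were chosen after these values were seen. Alternatives were another pseudocount, rescaling, quantile normalization, other filters and folds, each segment left out, the 3 libraries alone and the tail added. Added after seeing the data were a filter on the 3 libraries, a fit without those libraries of other groups that were closest to another group (the body, closest to follicle replicate 1, was kept), and follicle replicate 1 required to differ as well.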

Additional observations from a re-analysis of the deposited data

Results flagged for a closer look

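The genes called higher in the head and body of the epididymis were also present in a library outside the comparison: follicle replicate 1 had a median of 2.45 on the log2(FPKM + 1) scale for them, the second highest of the 91 other libraries after bull testis (4.56) and above the median of 0.758 over the 91. The head and the body lay on opposite sides of the vas deferens, at least 4-fold each, in 5 genes with the head below and the body above and in 1 gene with the head above and the body below, of 8190 genes compared. Most of these genes were listed at 0 in the head or the body, against 6.78 to 13.3 FPKM in the vas deferens, and an exact 0 can be a failed estimate. These opposite directions rest on 1 library each and were not tested.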

How the results depend on the processing

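For the head and body against the vas deferens, limma called 1591 genes in all. Leaving out a segment gave 775 to 1637 genes, with 618 to 1237 higher and 157 to 400 lower. The 3 libraries alone gave 0 genes, 0 higher and 0 lower, with 2921 at an unadjusted p under 0.05. Adding the tail gave 878 genes, 588 higher and 290 lower. With the head, body and vas deferens kept and 18 libraries of other groups left out because their closest profile lay in another group, 3728 genes were called, 2524 higher and 1204 lower. Quantile normalization gave 776 lower. The other settings kept each count within 1.5 times, and no gene called in both turned its direction under any setting. Requiring the tail to differ 4-fold from the vas deferens as well as the head and body reduced 1050 genes to 304, 104 higher and 200 lower. Between head and body, 411 genes became 674 (386 higher in the head) at an FPKM of 1 and 1521 (750 and 771) at 2-fold. The causes were not tested. The 4 genes named against the vas deferens kept their direction under all 10 alternatives and their call under 9. No paired analysis was possible because the labels give no replicate numbers that the groups share. Depth is unknown, so what it limits could not be given.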
